A study of Homo sapiens with 6 samples.

Results

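The genes described here were taken by name, as 8 genes of the tight junction: OCLN, CLDN1, CLDN4, CLDN7, TJP1, TJP3, F11R and CGN. Of these 8, 7 had a named transcript cluster on the arrays, each with 1 cluster, out of 14884 named genes in all. F11R was not analysed here. RNA came from RWPE-1, an established line of benign human prostate epithelium, grown in KSFM to a subconfluent monolayer. RWPE1-CTRL cells carried the CD511B-1 lentiviral vector with a scrambled insert, and RWPE1-183FC cells carried the same vector with the genomic region of the miR-183 family cluster (miR-183, miR-96 and miR-182). Both were sorted for the GFP tracer of the vector and kept as polyclonal populations, and each group had 3 biological replicates, 1 array each. The question here is which genes of the junction differed once the cluster was overexpressed. Cells without a vector were not analysed here.

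Tight junctions seal the space between neighbouring epithelial cells near their apical side. Claudins form the strands that open or close the paracellular path to ions, occludin and the junctional adhesion molecules sit beside them in the membrane, and the zonula occludens proteins and cingulin tie this membrane part to the actin cytoskeleton. In prostate epithelium the barrier separates the lumen from the stroma, and loss of junction genes accompanies the passage to a mesenchymal state, in which the repressors ZEB1, ZEB2, SNAI1 and SNAI2 act on E-box sequences of epithelial promoters.

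The 4 promoter windows below are shown because they hold the E-box letters CAGGTG, the kind bound by ZEB and SNAI factors, and because the repressor ZEB1 was called lower on the same arrays (values further on). For each gene the window with the most matches is printed. The sequences are those of RefSeq for GRCh38.p14, run 5′ to 3′ on the strand of the gene, and span 250 bases before to 50 bases after an annotated transcription start, so that base 251 is the start. Capitals mark CAGGTG or its reverse complement CACCTG.
CLDN7 (chr17:7262429-7262728, minus strand): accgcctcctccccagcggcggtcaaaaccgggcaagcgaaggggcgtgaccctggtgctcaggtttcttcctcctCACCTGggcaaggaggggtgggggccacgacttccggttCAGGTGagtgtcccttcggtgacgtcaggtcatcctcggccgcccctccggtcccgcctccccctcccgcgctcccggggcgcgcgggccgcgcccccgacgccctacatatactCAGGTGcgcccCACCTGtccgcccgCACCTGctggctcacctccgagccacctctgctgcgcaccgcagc
OCLN (chr5:69492540-69492839, plus strand): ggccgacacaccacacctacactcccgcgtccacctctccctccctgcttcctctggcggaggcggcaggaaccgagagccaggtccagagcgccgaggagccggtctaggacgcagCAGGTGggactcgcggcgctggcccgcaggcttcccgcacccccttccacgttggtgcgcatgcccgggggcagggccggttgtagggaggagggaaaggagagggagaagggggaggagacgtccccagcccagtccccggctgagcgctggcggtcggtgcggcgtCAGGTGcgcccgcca
TJP1 (chr15:29969000-29969299, minus strand): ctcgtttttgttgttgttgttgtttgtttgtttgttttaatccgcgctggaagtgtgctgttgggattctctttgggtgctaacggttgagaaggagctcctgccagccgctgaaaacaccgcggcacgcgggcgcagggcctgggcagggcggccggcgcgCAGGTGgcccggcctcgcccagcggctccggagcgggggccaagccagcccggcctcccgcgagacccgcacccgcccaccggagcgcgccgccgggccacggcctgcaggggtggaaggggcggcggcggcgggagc
TJP3 (chr19:3721487-3721786, plus strand): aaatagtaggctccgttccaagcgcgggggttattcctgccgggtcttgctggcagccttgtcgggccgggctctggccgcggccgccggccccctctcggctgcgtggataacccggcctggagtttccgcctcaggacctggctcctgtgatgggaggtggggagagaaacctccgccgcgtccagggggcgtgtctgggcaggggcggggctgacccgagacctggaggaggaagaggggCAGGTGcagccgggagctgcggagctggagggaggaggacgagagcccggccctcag
The table of RefSeq held 13 windows for 7 of the 8 genes, and 5 of the 13 held the E-box letters on either strand. Among all 35116 windows of the same length 20.6% held them. The CLDN7 window held 5 matches, a number reached or passed by 33 windows in all (0.094%). In CLDN7 they began at positions -174, -135, -20, -9 and 6 from the start, and none of the 5 overlapped another. The OCLN window shown held 2, at positions -133 and 36, and a second, partly overlapping OCLN window held 1. TJP1 and TJP3 held 1 each, at -88 and -7. The remaining windows of CLDN7, TJP1 and TJP3, not printed, held none. The windows of CLDN1, CLDN4 and CGN held none of these letters. A match is a description of the sequence and not a bound site.

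No difference between RWPE1-183FC and RWPE1-CTRL passed the test in the 7 measured tight junction genes, and for 4 of them (OCLN, CLDN1, CLDN4 and CGN) a change of over 1.5-fold lay within the 95% interval. Values are log2 values after RMA, in which 1 unit is a doubling, and a gene was called at a Benjamini-Hochberg FDR under 0.2 with a fold change over 1.5 (0.58 on the log2 scale) in limma fitted over all 14884 genes. By this rule 0 of the 7 were called, against 0.242% of all genes (36). With so small a share called over the arrays, 0 of 7 is near the background and sets these genes apart from no others. An unadjusted limma p below 0.05 was reached by 0 of the 7, against 2.43% of all genes higher and 2.36% lower. For none of the 7 did the arrays of the groups separate, against 5.16% of all genes with all 3 RWPE1-183FC arrays above all 3 RWPE1-CTRL arrays and 4.57% below. Mean levels were higher in RWPE1-183FC for 4 of the 7 (5 with median-centred arrays, 6 with quantile normalization), against 52% of all genes. The median log2 fold change of the 7 was 0.14, against 0.01 over all genes, and single genes lay between -0.10 (CGN) and 0.34 (OCLN). The adjusted p was 0.9998 for each of the 7.

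**Figure D1:**
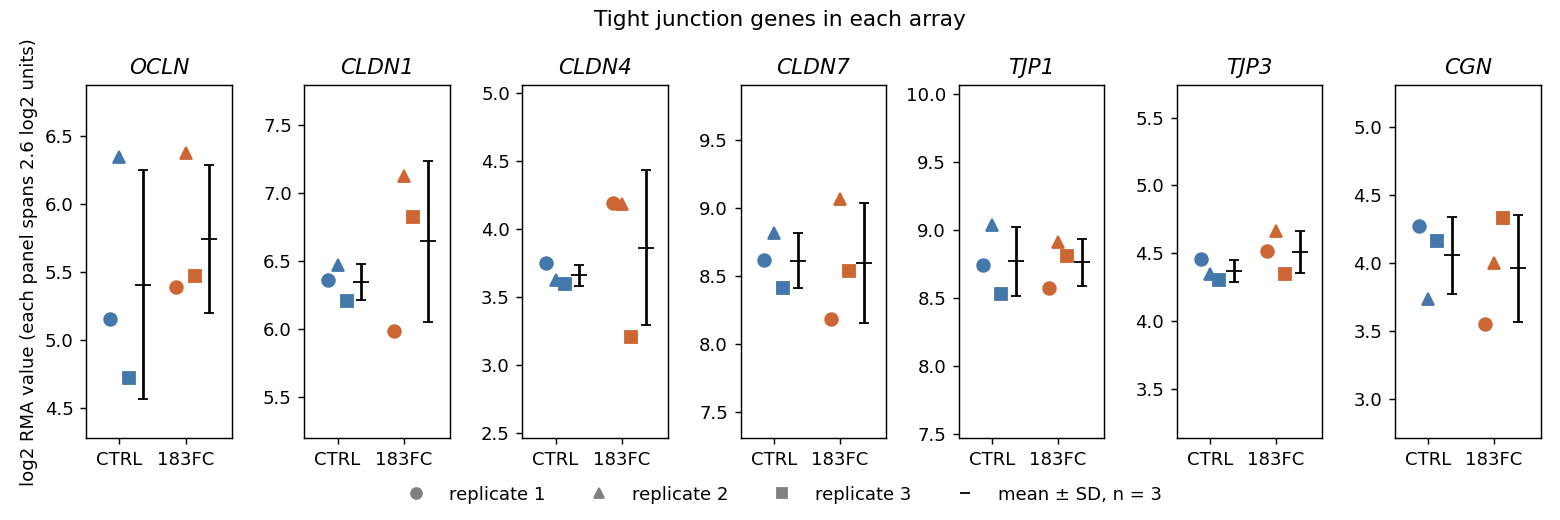
Log2 RMA values of the 7 measured genes in each array, with CTRL for RWPE1-CTRL (blue) and 183FC for RWPE1-183FC (orange), a symbol for each replicate number, and the mean ± SD of 3 arrays in black. Each panel spans the same number of log2 units around its own gene. The groups overlap in every panel, and in OCLN, CLDN7 and TJP1 the replicate 2 arrays (triangles) lie above the 4 others.

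OCLN encodes occludin, a membrane protein with 4 membrane-spanning segments of the MARVEL type. Its log2 values were 5.15, 6.35 and 4.72 in RWPE1-CTRL replicates 1, 2 and 3 and 5.39, 6.37 and 5.47 in RWPE1-183FC replicates 1, 2 and 3. The replicate 2 arrays of both groups were the 2 highest, and apart from them every RWPE1-183FC array lay above every RWPE1-CTRL array. The log2 fold change was 0.34 (standard error 0.39, 95% interval -0.54 to 1.21, exact two-sided permutation test over arrays, p = 0.5). With RWPE1-CTRL replicate 2 left out it was 0.81, and with RWPE1-CTRL replicate 3 left out it was -0.01. OCLN thus had the largest difference of the 7 and also the widest interval. The genome holds a partial copy, the pseudogene OCLNP1, whose transcripts probes on shared sequence could not tell from OCLN. The OCLNP1 cluster was at 6.68, 7.92 and 6.62 in RWPE1-CTRL and at 6.27, 8.16 and 6.64 in RWPE1-183FC, with the same high arrays and a log2 fold change of -0.05. OCLNP1 was looked up after the values of OCLN were seen.

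CLDN1 encodes claudin-1, a sealing claudin of skin and other epithelia. It was at 6.36, 6.47 and 6.21 in RWPE1-CTRL and at 5.99, 7.13 and 6.82 in RWPE1-183FC. The control arrays lay close together, while RWPE1-183FC held both the lowest array and the 2 highest. The log2 fold change was 0.30 (standard error 0.26, 95% interval -0.28 to 0.88), and the SD was 0.13 in RWPE1-CTRL and 0.59 in RWPE1-183FC. It was 0.63 without RWPE1-183FC replicate 1 and 0.06 without RWPE1-183FC replicate 2.

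CLDN4 encodes claudin-4, a claudin of simple and glandular epithelia that also binds a clostridial enterotoxin. Its log2 values were 3.75, 3.63 and 3.60 in RWPE1-CTRL and 4.20, 4.19 and 3.21 in RWPE1-183FC. Replicates 1 and 2 of RWPE1-183FC were above all controls and replicate 3 was below all of them. The log2 fold change was 0.20 (95% interval -0.36 to 0.76). In 4 of the 6 arrays CLDN4 was below the median of the array, which lay between 3.82 and 3.86, so that its signal was dim. Without RWPE1-183FC replicate 3 the log2 fold change was 0.53, and without both replicate 2 arrays it was 0.02.

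CLDN7 encodes claudin-7, which lies along the lateral membrane as well as at the junction. It was at 8.62, 8.82 and 8.41 in RWPE1-CTRL and at 8.19, 9.07 and 8.54 in RWPE1-183FC. The lowest and the highest array both belonged to RWPE1-183FC, and the means differed by -0.02 on the log2 scale (standard error 0.22, 95% interval -0.51 to 0.48), or by 0.0068 with quantile normalization. The promoter window with 5 E-boxes is of this gene, and a link between the window and these values was not tested. The difference was 0.19 without RWPE1-183FC replicate 1 and -0.25 without RWPE1-183FC replicate 2.

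TJP1 and TJP3 encode ZO-1 and ZO-3, scaffold proteins whose PDZ domains bind the cytoplasmic ends of claudins. TJP1 was at 8.75, 9.03 and 8.53 in RWPE1-CTRL and at 8.57, 8.91 and 8.81 in RWPE1-183FC. The values of the groups were interleaved, and the log2 fold change was -0.01 (standard error 0.17, 95% interval -0.39 to 0.38), or 0.0079 with median-centred arrays. TJP3 was at 4.46, 4.35 and 4.31 in RWPE1-CTRL and at 4.52, 4.66 and 4.35 in RWPE1-183FC. Of the 7 genes it came nearest to separating the groups, with RWPE1-183FC replicate 3 alone lying among the controls, and its log2 fold change was 0.14 (standard error 0.15, 95% interval -0.19 to 0.47, exact two-sided permutation test, p = 0.2). The smallest p that 3 arrays against 3 allow in that test is 0.1.

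CGN encodes cingulin, a cytoplasmic protein that joins ZO-1 to actomyosin. Its log2 values were 4.27, 3.74 and 4.17 in RWPE1-CTRL and 3.55, 4.0 and 4.33 in RWPE1-183FC. The lowest and the highest array were again both of RWPE1-183FC, and 2 of the 6 arrays were below the array median. The log2 fold change was -0.10 (standard error 0.22, 95% interval -0.59 to 0.40), and it was 0.11 without RWPE1-183FC replicate 1.

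**Figure D2:**
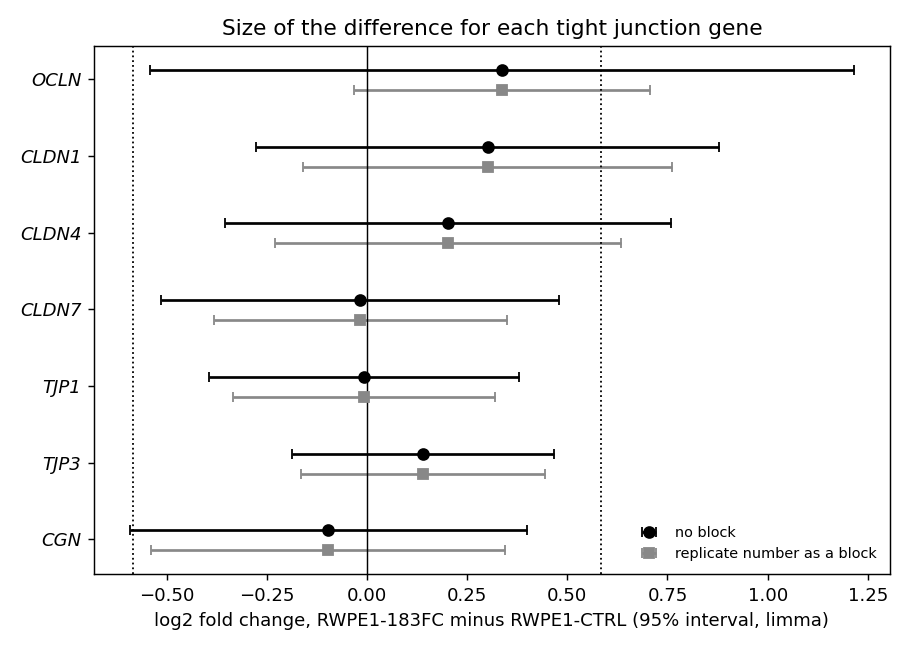
Log2 fold change of each gene, RWPE1-183FC minus RWPE1-CTRL, with 95% intervals from limma, without (black circles) and with (grey squares) the replicate number as a block. Dotted lines mark a 1.5-fold change in either direction. All 14 intervals include 0, and those of CLDN7, TJP1 and TJP3 lie between the dotted lines in both fits.

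The intervals bound how large a difference in array signal could have been missed. For CLDN7, TJP1 and TJP3 the 95% interval lay within a 1.5-fold change in either direction. TJP3 was dimmer than the other 2, at 4.31 to 4.66, and its mean was not above the median level of the named genes. How closely the signal follows the RNA at that level was not tested. Those of OCLN, CLDN1 and CLDN4 reached past a 1.5-fold rise but not a 1.5-fold fall. That of CGN, which reached down to -0.59, just passed a 1.5-fold fall. These are intervals for single genes, and a p that misses the threshold does not show equal levels. When replicate number entered limma as a block, the genes called over the whole array rose from 36 to 109, but again 0 of the 7 were among them. The smallest adjusted p of the 7 in that fit was 0.64, for OCLN, with an interval of -0.03 to 0.71.

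Within replicate numbers, OCLN and TJP3 were higher in RWPE1-183FC in 3 of 3 comparisons. The share of all genes with 3 of 3 in the same direction was not counted, so this sets the 2 genes apart from no others. For OCLN the differences were 0.24, 0.02 and 0.75 in replicates 1, 2 and 3, and for TJP3 they were 0.06, 0.32 and 0.04. The other 5 genes differed in sign between replicate numbers. CLDN1 was at -0.37, 0.66 and 0.62, CLDN7 at -0.43, 0.25 and 0.13, and CGN at -0.72, 0.27 and 0.17. These 3 genes were lower in RWPE1-183FC in replicate 1 only and higher in replicates 2 and 3. CLDN4 differed by 0.44, 0.56 and -0.40, with replicate 3 as the exception, and TJP1 by -0.17, -0.12 and 0.28.

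**Figure D3:**
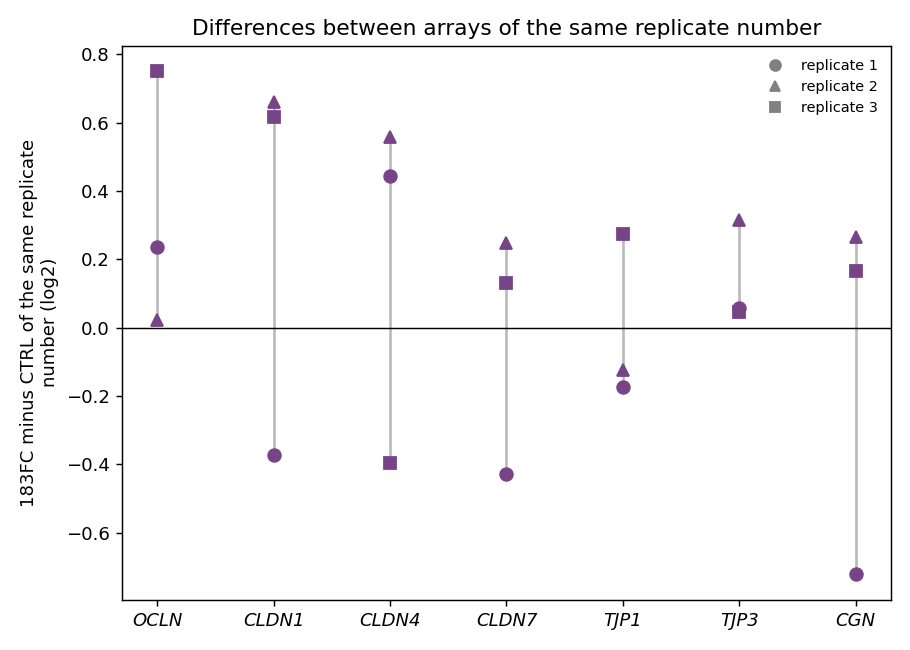
Log2 difference between the RWPE1-183FC and the RWPE1-CTRL array of the same replicate number for each of the 7 genes, with a symbol per replicate number and a grey line over their range. OCLN and TJP3 have all 3 points above 0, and the other 5 genes have points on both sides of it.

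The values of these genes also moved with the replicate number. The mean of the 2 replicate 2 arrays exceeded that of the 4 others by 1.18 in OCLN, 0.50 in CLDN7 and 0.31 in TJP1 on the log2 scale. For the other genes this difference was 0.45 in CLDN1, 0.22 in CLDN4, 0.10 in TJP3 and -0.21 in CGN. In OCLN, CLDN7 and TJP1, 3 of the 7, both replicate 2 arrays lay above all 4 others, a pattern found in 14.4% of all genes, and in 0 of the 7 did both lie below, against 13.1% of all genes. On the first principal component of all genes, with 39.1% of the variance, the replicate 2 arrays were at 24.0 and 24.9 and the others between -18.7 and -3.55. The labels name no batch behind the replicate number, and its part in the values was not tested. This comparison was added after the values were seen.

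As a description of likeness over the 6 arrays, which share their group and replicate number, the closest genes by Pearson's r among 7442 genes of at least median level were looked up. For OCLN they were KIAA0319L (r = 0.994) and CAMTA2 (0.993), for CLDN1 DHRS7 and BRD3 (both 0.991) and for CLDN4 PFDN5 (0.973) and COPRS (0.971). They were SERINC1 (0.987) and RPL32P3 (0.986) for CLDN7, MIR191 (0.999) and MSH3 (0.993) for TJP1, MIR24-2 (0.981) and RPL37A (0.977) for TJP3, and MAP1S (0.987) and PXN-AS1 (0.983) for CGN. With 6 arrays such values are common: 280 genes passed 0.9 with OCLN, 242 with CLDN7, and 34 with CGN. None of these closest genes is a tight junction gene. Among the 7 themselves, taken as deviations from the group means, OCLN and TJP1 (r = 0.923), CLDN1 and CLDN7 (0.916) and CLDN4 and TJP3 (0.840) went together most closely, and CLDN4 and CGN were the most opposed (-0.619).

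Around these genes, 102 genes of the junction in 6 lists were looked up and 80 were measured. Besides the 7, 73 were measured, of which 0 were called higher and 2 lower, NECTIN3 and ZEB1, against 0.242% of all genes called in either direction. The lists were chosen with earlier results of these data known, so the 2 calls do not show an excess. Of the same 73, the groups did not overlap in 5 with RWPE1-183FC higher and 6 with it lower, against 5.16% and 4.57% of all genes.

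All 21 claudins listed were measured and 0 were called, with a median log2 fold change of -0.01 and 10 of 21 means higher in RWPE1-183FC. CLDN6, a claudin of early embryonic epithelium, was at 2.54, 2.51 and 2.56 in RWPE1-CTRL and at 2.74, 3.50 and 2.90 in RWPE1-183FC. Its groups did not overlap and differed by 0.51 on the log2 scale (limma adjusted p = 0.991), but it was below the array median in all 6 arrays. CLDN11, a claudin of myelin and of Sertoli cells, was at 3.65, 3.75 and 4.13 against 3.42, 3.05 and 3.07, likewise without overlap. It was below the array median in 5 of 6 arrays, all but RWPE1-CTRL replicate 3. It was lower by a mean log2 difference of -0.66 (adjusted p = 0.569), short of the threshold. In all, 7 of the 21 claudins, CLDN6 included, were below the array median in every array.

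Of 13 other membrane proteins of the junction 9 were measured and 0 were called, with 7 of 9 means higher and a median of 0.17. TMEM47, a small relative of the claudins, was at 4.50, 5.06 and 4.75 in RWPE1-CTRL and at 3.82, 4.47 and 4.13 in RWPE1-183FC. Every RWPE1-183FC array lay below every control, at a log2 fold change of -0.63 (adjusted p = 0.852). TMEM47 was called lower with the replicate number as a block (adjusted p = 0.161 from limma). MARVELD2 and MARVELD3, the relatives of occludin, were at log2 fold changes of -0.11 and 0.42 and overlapped between the groups. MARVELD2 and MARVELD3 were picked for their kinship to OCLN after values had been seen.

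Of 19 plaque and adaptor genes 12 were measured and 0 were called, with a median of -0.03. CGNL1, which encodes paracingulin, had the largest change, at a log2 fold change of 0.28 (adjusted p = 0.9998), with overlapping groups. Of 19 genes of the apical polarity complexes 14 were measured and 0 were called, with a median of 0.01. LLGL2, a homologue of the Drosophila basolateral polarity protein Lethal giant larvae, was at 5.24, 5.43 and 5.38 in RWPE1-CTRL and at 5.69, 5.94 and 5.57 in RWPE1-183FC. All its RWPE1-183FC arrays lay above all controls, by 0.39 in the means (adjusted p = 0.991).

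NECTIN3 was the gene of these lists that differed most. It encodes nectin-3, an immunoglobulin-like adhesion molecule that pairs with nectins on the neighbouring cell and binds afadin at adherens junctions. It was at 6.01, 5.84 and 6.21 in RWPE1-CTRL and at 5.18, 5.18 and 4.99 in RWPE1-183FC, above the array median throughout. The groups did not overlap, and their means differed by -0.91 on the log2 scale (limma adjusted p = 0.118, standard error 0.15). The linear level in RWPE1-183FC was 0.534 of the control level. With 1 array left out the difference ran from -0.81 to -0.997, and the adjusted p was 0.126 without RWPE1-CTRL replicate 2 and 0.231 to 0.545 without each of the 5 other arrays, where it was no longer called. NECTIN1, NECTIN2 and NECTIN4, named here beside it as its family, were at 0.12, 0.24 and -0.25 and were not called. In all, 8 of 13 adherens junction genes were measured, with 4 higher means and 4 lower. The cadherin genes CDH1 and CDH3 and the catenin genes CTNNA1, CTNNB1 and CTNND1 of this list had no named cluster and were not measured.

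Of 17 regulators of epithelial junction genes 16 were measured and 1 was called. ZEB1, the E-box repressor, was at 4.24, 4.14 and 4.21 in RWPE1-CTRL and at 3.21, 3.36 and 3.63 in RWPE1-183FC. Every RWPE1-183FC array was below every control, by -0.79 in the means (limma adjusted p = 0.193, standard error 0.15), and its RWPE1-183FC arrays were below the array median. The call was lost with any 1 array left out (limma adjusted p from 0.298 to 0.819) and without both replicate 2 arrays (0.522). It was also lost with median-centred arrays (0.223), quantile normalization (0.238), the variance prior with trend and robust (0.215), all transcript clusters (0.461) and an FDR under 0.05. The call was kept with both filters, the replicate block, the mean of clusters per symbol and array weights. The related ZEB2 was at 3.70, 3.92 and 4.20 against 3.41, 3.43 and 3.17, also without overlap, at -0.60 (adjusted p = 0.628). SNAI1, a further E-box repressor, was at 4.15, 4.51 and 4.44 against 4.52, 4.94 and 4.56, at 0.31 (adjusted p = 0.9998) and without overlap. SNAI2, the remaining repressor of this kind, added after values had been seen, was at 10.75, 9.95 and 10.56 against 10.93, 9.91 and 10.96, with overlapping groups and a difference of 0.18 (adjusted p = 0.9998). In the same arrays the genes fell as follows by their promoter windows. CLDN7, OCLN, TJP1 and TJP3, with CAGGTG or CACCTG in at least 1 window, were at -0.02, 0.34, -0.01 and 0.14. CLDN1, CLDN4 and CGN, with these letters in none of their windows, were at 0.30, 0.20 and -0.10. Whether the 2 sets differ was not tested, and the share of all genes with such a window was not counted. Other E-box letters were not searched.

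**Figure D4:**
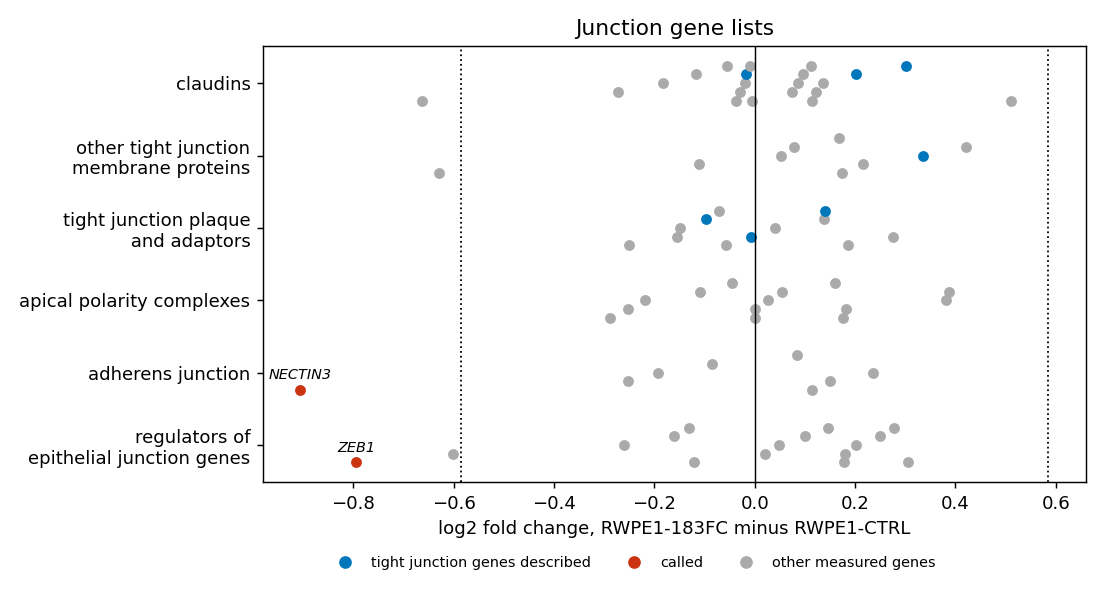
Log2 fold change, RWPE1-183FC minus RWPE1-CTRL, of the 80 measured genes in 6 junction lists, with the 7 tight junction genes in blue, called genes in red and the others in grey. Vertical position within a list only separates the points, and dotted lines mark a 1.5-fold change. NECTIN3 and ZEB1 are the 2 called genes, and all 7 blue points lie between the dotted lines.

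As a check of the labels, the MIR96 feature was at 1.92 to 2.67 in RWPE1-CTRL and at 5.19 to 5.93 in RWPE1-183FC (log2 fold change 3.20, limma adjusted p = 0.00175), and the MIR183 feature was higher by 1.80 (0.0348). The MIR182 feature, for the remaining miRNA of the insert, was at 2.67, 2.90 and 3.24 against 3.28, 3.11 and 3.44, below the array median in all 6 arrays, with overlapping groups and no call (0.34, limma adjusted p = 0.9998). The basal keratin KRT5 was between 9.30 and 9.86 and the luminal-type keratin KRT18, the brighter of 2 clusters, between 10.5 and 10.6 in every array. The other luminal markers measured were lower, KRT8 at 5.31 to 6.22, KRT19 at 5.34 to 6.97 and KLK3 at 3.63 to 4.01. KLK3 was below the array median in 2 of 6 arrays. Of the basal markers KRT14 was at 8.70 to 9.84 and KRT15 at 4.21 to 5.59. The fibroblast markers DCN and LUM and the endothelial markers PECAM1 and KDR were below the array median in all 6. The other markers of these lists were not: THY1, of fibroblasts, was at 4.78 to 5.17 and above the median in every array, and VWF, of endothelium, was below it in 2 of 6. Of the leukocyte markers LYZ was below it in all 6 arrays, CD14 in 5 of 6, and CD68, a lysosomal protein found in many cell types, was above it. Of the epithelial markers KRT15, a basal keratin, rose (log2 fold change 0.96, limma adjusted p = 0.18) and KRT19 fell (-1.11, adjusted p = 0.137), and the other 5 of the 7 basal and luminal markers measured were not called. Of the basal markers only KRT15 had a higher mean in RWPE1-183FC. KRT5 (log2 fold change -0.20, all RWPE1-183FC arrays below all controls) and KRT14 (-0.09) had lower means. The mean log2 value of the 3 basal markers was 7.59 to 8.02 in RWPE1-CTRL and 7.88 to 8.25 in RWPE1-183FC. That of the 4 luminal markers was 6.50 to 6.85 and 6.43 to 6.54. The part of these basal and luminal markers in the junction values was not tested. In bulk RNA, fewer cells that express a gene and less of its RNA per cell cannot be told apart.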

How the data were processed

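The authors deposited log2 intensities summarised per transcript cluster with RMA, run by their methods in the R package oligo. Partek and RMA stand in the submitters' processing notes. The methods name a Human Gene 1.0 ST array, while the cluster identifiers match the annotation of the 2.0 ST design. Of 53617 clusters 16098 had 1 gene symbol, 0 had several and 37519 had none. The brightest cluster per symbol gave 14884 genes, with names checked in RefSeq. The 6 arrays correlated at 0.974 to 0.988, and their number limits the precision.

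Groups were tested over all genes with limma 3.58.1 (R 4.3.3, lmFit and eBayes) at the thresholds of the methods. The methods' filter on median and variance (20th percentile) was kept as an alternative, because it removed TJP3. The script was tested on simulated data. Members and lists were chosen with earlier results of these data known. Named genes were the members, the 2 genes most like each, and from the lists the called genes and those without overlap and past 0.3 in log2 fold change, or else the largest change. Same-numbered arrays of the 2 groups deviated together at r = 0.101, 0.511 and 0.29 for replicates 1, 2 and 3. This meets the rule used for pairing (every r over 0.1), although the labels state no pairing. Replicate 1 of the overexpressing group went more closely with control replicate 3 (r = 0.214) than with control replicate 1 (0.101). The values thus do not show replicate 1 to be a pair. Only for replicate 2 was every r with an array of another number negative. These r use deviations from the group means, which cancel out over the 3 arrays of a group. The negative values are therefore partly set by the positive r of the same-numbered arrays. The results given are from the fit without the block unless the block is named, and the exact tests do not use the pairs. Alternatives were arrays left out, the replicate block, filters, normalization, the handling of clusters, array weights, the variance prior and a stricter FDR. Replicates are called biological, but separate cultures are not described, so p-values measure the spread between these arrays. Figures were drawn with matplotlib 3.10.9.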

Additional observations from a re-analysis of the deposited data

How the results depend on the processing

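None of the 7 tight junction genes was called under any of the 17 alternatives run (TJP3 under 16, since the filter on variance removed it), and the smallest adjusted p over all of them was 0.64 from limma, for OCLN with the replicate block. The 36 genes called became 90 with the filter on median and variance, 109 with the replicate block, 14 clusters over all transcript clusters, 9 at an FDR under 0.05 and between 4 (RWPE1-CTRL replicate 3 left out) and 24 (RWPE1-CTRL replicate 2 left out) when single arrays were dropped. The 2 genes called in the wider lists became 1 with median-centred arrays, with quantile normalization, with the variance prior with trend and robust and without both replicate 2 arrays, 0 over all transcript clusters and at an FDR under 0.05, and 0 to 1 with 1 array left out. The replicate block called 3, by adding TMEM47. Genes with higher means were 3 to 7 of the 7 with 1 array left out, 7 without RWPE1-183FC replicate 1. Genes without overlap between groups were 0 to 2 with 1 array left out and 1 without both replicate 2 arrays. With fewer arrays groups separate more easily, and the share of all genes was not counted for these settings. These counts therefore cannot be set against the shares given for the full set of arrays. Small differences turned sign without being called. TJP1 was at 0.0079 with median-centred arrays, 0.0027 with quantile normalization and 0.051 without both replicate 2 arrays, and CLDN7 at 0.0068 with quantile normalization. With 1 array left out OCLN ran from -0.0083 to 0.81, CLDN7 from -0.25 to 0.19, TJP1 from -0.13 to 0.13 and CGN from -0.28 to 0.11. For the counts that moved the cause was not tested, apart from the fewer arrays, genes or rows that the alternative itself uses.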
